A study of Mus musculus with 2 samples.

Results

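The 10 genes described here encode enzymes of glycolysis, the pathway that splits glucose into pyruvate and lactate: Hk1, Hk2, Pfkl, Aldoa, Tpi1, Gapdh, Pgk1, Eno1, Pkm and Ldha. They were chosen by name, and all 10 were found among the 42462 gene rows that could be given a symbol. Paired-end RNA-seq of polyadenylated RNA covered a single group of mouse cells, in 2 libraries that the labels number as biological replicates 1 and 2. Per the labels, the cells were leukemia stem cells, CD34+, CD133+, Kit+ and Sca1+, that carried Friend virus, a mouse retrovirus known for inducing erythroleukemia. Male and female adults aged 10 to 12 weeks were pooled, the strain carried the sensitive Fv2 allele (Fv2s), and both libraries share a donor record. All cells were infected, no uninfected cells were analysed here, and the labels do not say how the biosamples were split. The spread between the libraries may therefore be partly technical, and no condition was compared.

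Glycolysis begins when hexokinase traps glucose in the cell as glucose-6-phosphate, and phosphofructokinase then makes the committed step. Aldolase and triosephosphate isomerase yield glyceraldehyde-3-phosphate, which Gapdh, Pgk1, phosphoglycerate mutase, enolase and pyruvate kinase turn into pyruvate with a gain of ATP, and lactate dehydrogenase converts pyruvate to lactate. Mature red cells have no mitochondria and depend on this pathway. Most steps have several isozymes encoded by different genes, and several of the enzyme genes have left processed pseudogenes, copies of their spliced RNA, around the genome.

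Replicate 1 held 23575315 expected counts over its gene table and replicate 2 held 22541765; an expected count is an estimated number of fragments that need not be whole. Markers of the sort were scarce: Cd34, Prom1, Kit and Ly6a together reached 5.12 TPM in replicate 1 and 3.48 TPM in replicate 2, where TPM is transcripts per 1000000, a share corrected for length. Prom1, which encodes CD133, had 0.06 TPM in replicate 1 and 0 in replicate 2. All 12 erythroid markers were above 1 TPM in both libraries. The globin share of TPM was 11.0% in replicate 1 and 22.2% in replicate 2. The erythroid markers did not all share that direction. By the rule for genes apart given below, 4 of the 12 were higher in replicate 1 and 2 in replicate 2. Over all protein-coding genes with at least 20 counts these shares were 14.5% and 8.84%. Summed macrophage markers gave 924 and 1249 TPM in replicates 1 and 2, and summed B cell markers 692 and 280 TPM. C1qa, C1qb and C1qc made up most of the macrophage sum; of the 8 markers, C1qc was apart and higher in replicate 2, and Adgre1, Cd68 and Mertk were apart and higher in replicate 1. Skeletal muscle, liver and brain markers stayed between 0.16 and 1.35 TPM in sum, with Acta1, Myh1, Myh4, Alb and Ttr at 0 counts. The part of these other cells in the enzyme levels was not tested, and in bulk RNA a lower share of a cell type cannot be told apart from less RNA per cell.

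Glycolytic enzyme RNA was abundant, and replicate 1 held more of it. At a minimum of 1 TPM in both libraries, 9 of the 10 enzyme genes were detected, against 41.6% of the 21474 protein-coding genes. Their summed level was 8394 TPM in replicate 1 and 2058 TPM in replicate 2, a mean of 5226 ± 4480 TPM (SD, n = 2). Gapdh alone made most of that gap: without it the sums were 3241 TPM in replicate 1 and 1688 TPM in replicate 2. The median enzyme had a mean of 190 TPM.

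**Figure D1:**
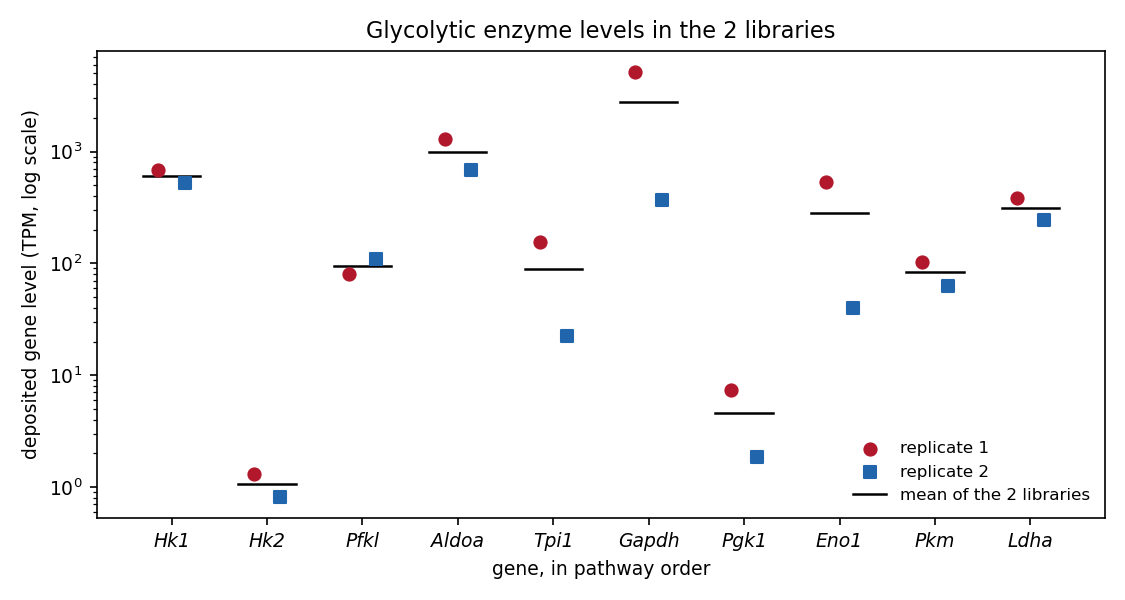
Deposited TPM of the 10 enzyme genes (log scale, pathway order from left to right); circles are replicate 1, squares replicate 2 and lines the mean of both. Replicate 1 is the higher for 9 genes and replicate 2 for Pfkl, and the widest gaps are those of Gapdh, Eno1 and Tpi1.

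In order of mean level, Gapdh came first with 2762 ± 3382 TPM, followed by Aldoa with 985 ± 428 TPM and Hk1 with 607 ± 118 TPM (SD, n = 2 throughout this order). Ldha had 314 ± 99.7 TPM and Eno1 285 ± 346 TPM. Pfkl, Tpi1 and Pkm lay close together at 95.3 ± 20.6, 88.4 ± 93.2 and 83.4 ± 28.9 TPM. Pgk1 followed with 4.58 ± 3.87 TPM, and Hk2 closed the order with 1.06 ± 0.339 TPM. Of the 9 neighbouring pairs in this order, 6 had values that overlapped across the libraries. Among these, Aldoa was above Hk1 within each library, with 1288 against 691 TPM in replicate 1 and 683 against 524 TPM in replicate 2. The other overlapping pairs changed order between the libraries. The 3 that did not overlap were Hk1 above Ldha, Pkm above Pgk1 and Pgk1 above Hk2.

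The libraries were also compared gene by gene, as the log2 ratio of scaled counts of replicate 1 over replicate 2 with an exact 95% binomial interval that covers counting error only. A gene was called apart when that interval lay wholly outside 2-fold. With 2 libraries of 1 group there is no test of a condition and no p-value. Of the 10 enzyme genes, 4 were apart and higher in replicate 1, namely Tpi1, Gapdh, Pgk1 and Eno1, against 14.5% of the 11708 protein-coding genes with at least 20 counts. None was apart and higher in replicate 2, against 8.84% of those genes. The median log2 ratio was 0.49 over the enzyme genes and 0.04 over all genes. The scale used here, TMM, sets most genes near no difference; scaling by total counts moved the median of all genes by 0.31, and the ratio of deposited TPM moved it by 0.40. With total counts the split over all genes became 2371 higher in replicate 1 and 518 higher in replicate 2, in place of 1699 and 1035, and the same 4 enzyme genes were apart.

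The hexokinases were represented almost wholly by Hk1 (ENSMUSG00000037012.14, chr10:62268855-62379908, mm10, minus strand), which encodes the isozyme of most tissues, red cells included. Hk1 had 691 TPM from 39058 counts in replicate 1 and 524 TPM from 36527 counts in replicate 2. Both libraries placed it among the upper levels, at rank 162 of the protein-coding genes in replicate 1 and rank 199 in replicate 2. Its log2 ratio was -0.40 (-0.42 to -0.38) on the TMM scale and 0.40 as a ratio of TPM, so its direction depended on the scale. Most of the difference in TPM lay in 1 transcript. Hk1-220, a transcript of 716 bases annotated as a retained intron, had 148 TPM from 1702 counts in replicate 1 and 0 counts in replicate 2. The complete coding transcripts of Hk1, meaning those annotated as protein-coding with both ends of the coding sequence, summed to 523 TPM in replicate 1 and 516 TPM in replicate 2.

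Hk1 has several alternative first exons, and most counts went to one of them. Hk1-201, which starts at position 62358362 of chromosome 10, had 31704 counts in replicate 1 and 32554 in replicate 2. Hk1-202, which starts at 62340542, had 5244 and 3844 counts in replicates 1 and 2. Hk1-203, the transcript that starts at the outer end of the gene, at 62379908, had 0 counts in both libraries. A count of 0 allows up to 3 counts, or 0.00768% of the Hk1 counts in replicate 1 and 0.00821% in replicate 2, counting error only. These transcripts share most of their exons, so their split rests on the reads over the exons that differ.

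Hk2 (ENSMUSG00000000628.6, chr6:82725025-82774454, minus strand), the inducible hexokinase of muscle, fat and many tumours, was close to the detection limit. It had 1.30 TPM from 109 counts in replicate 1 and 0.82 TPM from 56 counts in replicate 2, with a log2 ratio of 0.46 (-0.01 to 0.96). Of hexokinase TPM, Hk1 held 99.2% in replicate 1 and 99.3% in replicate 2, and Hk2 held 0.187% and 0.156%. Hk3 took nearly all of the remainder, with 4.62 TPM in replicate 1 and 2.82 TPM in replicate 2.

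Pfkl (ENSMUSG00000020277.9, chr10:77986947-78010083, minus strand), the liver-type phosphofructokinase, was the enzyme gene with the lowest ratio. It had 80.7 TPM from 5677 counts in replicate 1 and 110 TPM from 7814 counts in replicate 2. Its log2 ratio of -0.96 (-1.01 to -0.91) crossed the 2-fold limit, so it was not apart. A single transcript, Pfkl-201, carried 98.9% of the gene in replicate 1 and 99.8% in replicate 2. Pfkl held 72.8% of phosphofructokinase TPM in replicate 1 and 93.0% in replicate 2. The muscle-type gene Pfkm made up 18.3% and 3.90% in replicates 1 and 2, with 20.3 TPM in replicate 1 and 4.61 TPM in replicate 2, and was apart with a log2 ratio of 1.62 (1.42 to 1.83).

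Aldoa (ENSMUSG00000030695.9, chr7:126795234-126800751, minus strand), aldolase A, was high in both libraries. It had 1288 TPM from 27962 counts in replicate 1 and 683 TPM from 14511 counts in replicate 2, a log2 ratio of 0.45 (0.42 to 0.48). It held 99.9% of aldolase TPM in replicate 1. Its TPM was divided between a coding and a non-coding form. Aldoa-201, of 1511 bases, carried 47.4% in replicate 1 and 44.4% in replicate 2, and Aldoa-209, a retained-intron transcript of 895 bases, carried 39.0% and 47.6%.

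Tpi1 (ENSMUSG00000023456.10, chr6:124810586-124814296, minus strand), the only triosephosphate isomerase gene considered, was apart. It had 154 TPM from 1652 counts in replicate 1 and 22.4 TPM from 447 counts in replicate 2, a log2 ratio of 1.39 (1.24 to 1.54). Most of its TPM in replicate 1 came from a short transcript. Tpi1-204, a retained-intron transcript of 446 bases, carried 78.1% in replicate 1 and 39.8% in replicate 2, while the full-length Tpi1-205, of 1607 bases, carried 18.7% and 60.2%. On complete coding transcripts Tpi1 had 33.6 TPM in replicate 1 and 13.5 TPM in replicate 2, with a log2 ratio of 0.70 (0.53 to 0.88), and was no longer apart.

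Gapdh (ENSMUSG00000057666.14, chr6:125161715-125166467, minus strand) encodes glyceraldehyde-3-phosphate dehydrogenase and is widely used as a reference gene. It had 5153 TPM from 47014 counts in replicate 1 and 371 TPM from 7300 counts in replicate 2. It ranked 14 among protein-coding genes in replicate 1 and 305 in replicate 2. The log2 ratio was 2.19 (2.15 to 2.23), a clear separation of the libraries on the gene row. That separation sat on 1 transcript, Gapdh-206, a retained-intron transcript of 565 bases at chr6:125161853-125162527. It had 42160 counts in replicate 1 and 455 counts in replicate 2, or 95.8% and 14.6% of the gene's TPM.

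The complete coding transcripts of Gapdh, without its pseudogene Gm13394, showed the opposite direction. They summed to 194 TPM from 4430 counts in replicate 1 and 284 TPM from 6418 counts in replicate 2. Their log2 ratio was -1.03 (-1.09 to -0.98). Gm13394, identical to Gapdh-201 at 999 of 1000 aligned bases, had 20859 counts in replicate 1 and 2373 in replicate 2. The direction on coding transcripts therefore rests on how reads were divided between Gapdh and Gm13394. Gapdh-202, the leading transcript of replicate 2, carried 0.77% in replicate 1 and 56.9% in replicate 2. Among the 2617 genes that were apart on gene rows and had enough counts on complete coding transcripts, 2.79% changed sign in this way, and Gapdh was the only enzyme gene to do so. The class of complete coding transcripts was defined after the data had been seen.

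Gapdh-206 holds little sequence of its own. Of its 565 bases, 480 lie in exons of the coding transcript Gapdh-201 and 84 are an intron that it keeps. All 541 of its 25-base words occur in other annotated Gapdh transcripts, and 434 of them (80.2%) in coding ones. The kept intron is shown because it is what sets Gapdh-206 apart from coding Gapdh RNA. It lies at chr6:125162394-125162477 (mm10), and the capitals mark its first and last bases.
Intron kept in Gapdh-206: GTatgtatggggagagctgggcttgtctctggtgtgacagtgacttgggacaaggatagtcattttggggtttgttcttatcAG
Gapdh-213, a retained-intron transcript of 3289 bases that contains all 565 bases of Gapdh-206, had 209 counts in replicate 1 and 54.3 in replicate 2.

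Pgk1 (ENSMUSG00000062070.8, chrX:106187100-106203699, plus strand), the phosphoglycerate kinase of somatic cells, was low. It had 7.32 TPM from 238 counts in replicate 1 and 1.84 TPM from 60 counts in replicate 2, far below the genes of the adjoining steps. Its log2 ratio was 1.48 (1.08 to 1.92), so it was apart. Pgk1-203, of 1764 bases and of the nonsense-mediated decay class, carried 82.3% in replicate 1 and 64.4% in replicate 2. The coding Pgk1-201 had 43.2 counts in replicate 1 and 21.9 in replicate 2, and on complete coding transcripts the log2 ratio was 0.45 (-0.30 to 1.28). Pgk2, the testis form, had 0 counts in both libraries.

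Eno1 (ENSMUSG00000063524.9, chr4:150236721-150248879, plus strand), alpha-enolase, had the largest ratio of scaled gene counts of the 10 genes; as a ratio of TPM, Gapdh was larger, at 13.9 against 13.4. It had 530 TPM from 18471 counts in replicate 1 and 39.6 TPM from 1295 counts in replicate 2. Its log2 ratio was 3.34 (3.26 to 3.42) on the gene row and 3.37 (3.29 to 3.46) on complete coding transcripts, so Eno1 was apart on both measures. Of its coding-transcript words, 54.8% occur in other genes, so both measures depend on how reads were assigned. Eno1-201 carried 92.9% in replicate 1 and 56.3% in replicate 2, and Eno1-202, also coding, 6.15% and 32.3%. The retrogene Eno1b, annotated as protein-coding, was likewise apart, with 97.6 TPM in replicate 1 and 12.8 TPM in replicate 2. Eno1 held 82.4% of enolase TPM in replicate 1 and 65.4% in replicate 2, Eno1b 15.2% and 21.2%, and the muscle form Eno3 2.29% and 13.2%.

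Pkm (ENSMUSG00000032294.12, chr9:59656368-59679375, plus strand) encodes pyruvate kinase. It had 104 TPM from 4719 counts in replicate 1 and 63.0 TPM from 2865 counts in replicate 2, a log2 ratio of 0.22 (0.16 to 0.29). Every count lay on complete coding transcripts, since the tables list only Pkm-201 and Pkm-202. These differ by a choice between 2 exons of 167 bases: Pkm-202 uses the first and encodes the M1 form of adult muscle and brain, and Pkm-201 uses the second and encodes the M2 form of proliferating cells. The exons are shown because this choice defines the forms. The first lies at chr9:59675029-59675195 and the second at chr9:59675568-59675734 (mm10, plus strand), and capitals mark the positions at which they differ.
Exon of Pkm-202, M1 form: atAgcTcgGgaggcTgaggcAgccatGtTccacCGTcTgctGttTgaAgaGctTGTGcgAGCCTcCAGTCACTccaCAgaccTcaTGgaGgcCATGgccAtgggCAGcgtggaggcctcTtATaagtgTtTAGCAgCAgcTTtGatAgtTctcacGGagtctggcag
Exon of Pkm-201, M2 form: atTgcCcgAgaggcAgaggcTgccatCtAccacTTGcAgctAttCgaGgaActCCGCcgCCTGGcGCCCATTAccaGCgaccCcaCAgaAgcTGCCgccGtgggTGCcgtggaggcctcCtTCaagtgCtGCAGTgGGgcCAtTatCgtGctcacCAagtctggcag
Aligned without gaps, they are identical at 103 positions and differ at 64, or 61.7% identity.

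Nearly all Pkm RNA was assigned to the M2 form. Pkm-201 carried 99.7% of Pkm TPM in replicate 1 and 100% in replicate 2. Pkm-202 had 14 of 4719 counts in replicate 1, or 0.297% (exact Clopper-Pearson 95% interval 0.162 to 0.497%), and 0 of 2865 counts in replicate 2, with an upper bound of 0.129% by the same interval and 0.105% by the floor of 3 counts. These limits cover counting error only and are too narrow for the exon choice itself, because the exon makes up 6.87% of Pkm-201 and reads elsewhere fit both forms. The muscle markers were at the levels given above, with Acta1, Myh1 and Myh4 at 0 counts. Of the 6 splicing factor genes listed for the Pkm exon choice, all were above 1 TPM in both libraries. Ptbp1, whose product represses the M1 exon in human cells, had 1344 TPM in replicate 1 and 534 TPM in replicate 2. Hnrnpa2b1 had 236 and 90.7 TPM, Hnrnpa1 82.0 and 29.2 TPM, and Srsf3 33.2 and 4.82 TPM in replicates 1 and 2. Ptbp1 and Srsf3 were apart. Their complete coding transcripts had 334 and 65.4 TPM for Ptbp1, and 27.4 and 1.17 TPM for Srsf3, in replicates 1 and 2.

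The red cell and liver pyruvate kinase gene, Pklr, outranked Pkm on gene rows but not on complete coding transcripts. Pklr had 597 TPM in replicate 1 and 281 TPM in replicate 2, so that Pkm held 14.8% of pyruvate kinase TPM in replicate 1 and 18.3% in replicate 2. Most of that Pklr signal came from Pklr-205, of 345 bases, with 302 TPM in replicate 1 and 264 TPM in replicate 2, and from Pklr-203, of 349 bases, with 229 and 0 TPM. On complete coding transcripts Pklr had 63.5 TPM in replicate 1 and 16.5 TPM in replicate 2, and Pkm held 62.1% and 79.3% of the step. By expected counts, which favour long transcripts, Pkm held 45.2% in replicate 1 and 59.4% in replicate 2.

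**Figure D2:**
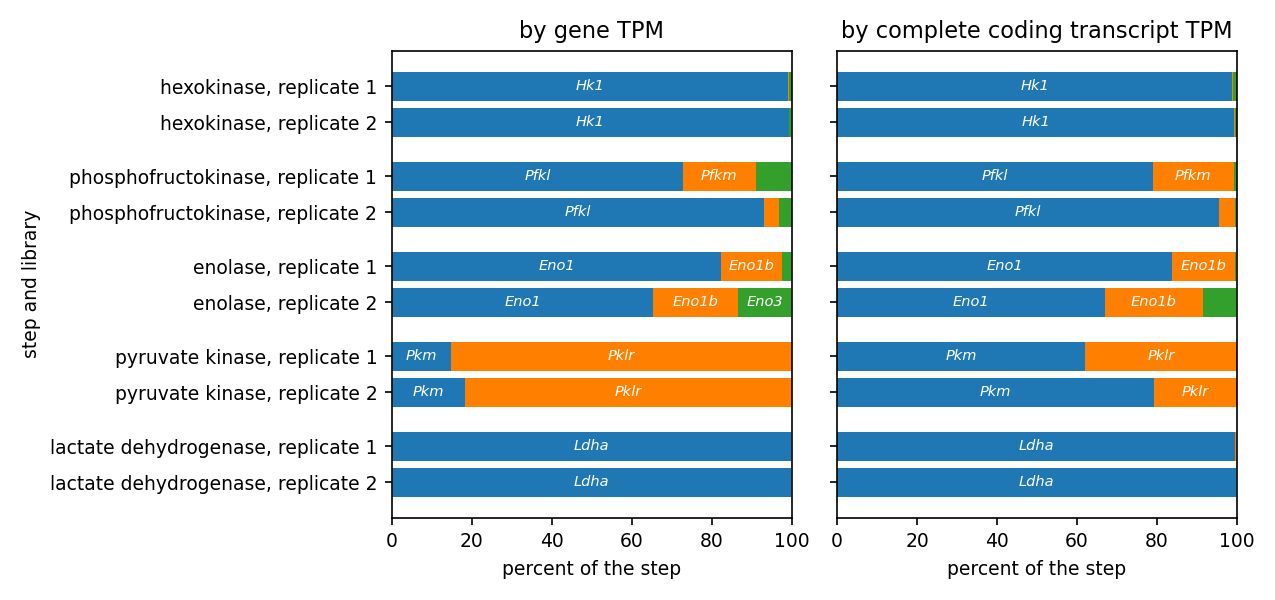
Percent of each step held by its isozymes (replicate 1 above replicate 2 in each pair), by gene TPM on the left and by TPM of complete coding transcripts on the right; grey is any other isozyme, and unlabelled green segments are the third gene of the step (Hk3, Pfkp or Eno3). Hk1 and Ldha fill their steps in both panels, whereas Pkm goes from under 20% on the left to over 60% on the right.

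Ldha (ENSMUSG00000063229.10, chr7:46841475-46855627, plus strand), the lactate dehydrogenase subunit that favours lactate formation, was high. It had 385 TPM from 6439 counts in replicate 1 and 244 TPM from 3175 counts in replicate 2, a log2 ratio of 0.52 (0.46 to 0.59). It held 99.9% of lactate dehydrogenase TPM in replicate 1; Ldhb, the subunit of heart and oxidative tissue, had 0.26 and 0 TPM in replicates 1 and 2. The leading transcript in both libraries was Ldha-206, a coding transcript of 645 bases annotated with an incomplete end, with 42.8% in replicate 1 and 66.0% in replicate 2. On complete coding transcripts Ldha had 104 TPM in replicate 1 and 21.2 TPM in replicate 2. That gave a log2 ratio of 1.79 (1.67 to 1.92), so Ldha was apart on this measure and not on its gene row.

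Counted over the 10 genes, complete coding transcripts thus gave another picture than gene rows. They made up less than 50% of the gene's TPM for 4 enzyme genes in replicate 1 (Tpi1 21.8%, Gapdh 3.76%, Pgk1 17.6% and Ldha 27.0%), against 28.2% of detected genes. In replicate 2 this held for 2, Pgk1 with 35.9% and Ldha with 8.70%, against 31.0% of detected genes. On complete coding transcripts 2 enzyme genes, Eno1 and Ldha, were apart and higher in replicate 1. This was near the share of all genes, 18.2% of the 11222 with enough counts. None was apart in the other direction, against 9.15%. These ratios used the scale of the gene rows, and their median was 0.46 over the enzyme genes and 0.14 over all genes. The summed level was 2283 TPM in replicate 1 and 1389 TPM in replicate 2. Aldoa then led with 532 ± 264 TPM, followed by Hk1 with 519 ± 5.42 TPM, Eno1 with 280 ± 346 TPM and Gapdh with 239 ± 64.1 TPM (SD, n = 2). The leading transcript was the same in both libraries for 6 of the 10 genes, against 69.9% of detected genes with more than 1 transcript, so this share was near that of all genes.

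For 10 of the 20 enzyme values (10 genes in 2 libraries), the deposited TPM lay outside the authors' own interval for that value, against 11.4% of 17884 values of detected protein-coding genes. These shares are not like for like. The interval surrounds the posterior mean rather than the deposited TPM, and it is narrow for genes with many counts. The median level was 190 TPM for the enzymes and 15.4 TPM for detected genes, and genes of equal level were not compared. In replicate 1 Gapdh had a deposited level of 5153 TPM, and the authors' bounds were 4927 and 5020 TPM around a posterior mean of 4974 TPM. The deposited Gapdh level of 371 TPM in replicate 2 lay inside its bounds.

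**Figure D3:**
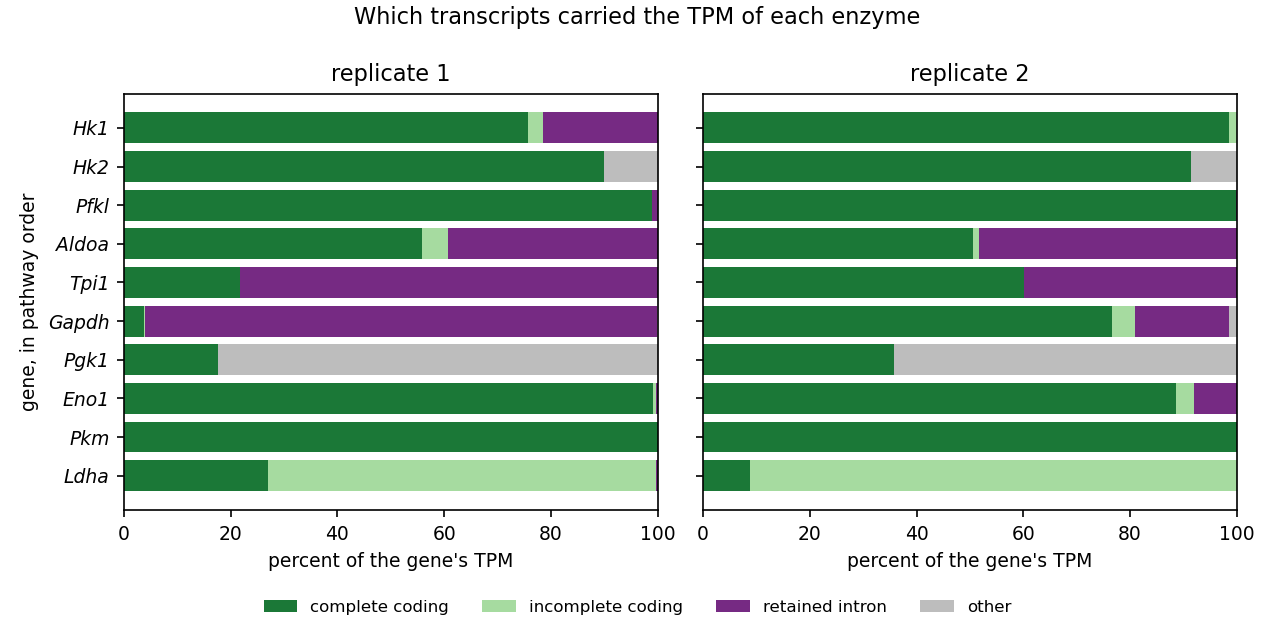
Percent of each enzyme gene's TPM by annotated transcript class, replicate 1 on the left and replicate 2 on the right. Gapdh is 3.76% complete coding in replicate 1 and 76.7% in replicate 2, while Pkm and Pfkl are nearly all complete coding in both.

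**Figure D4:**
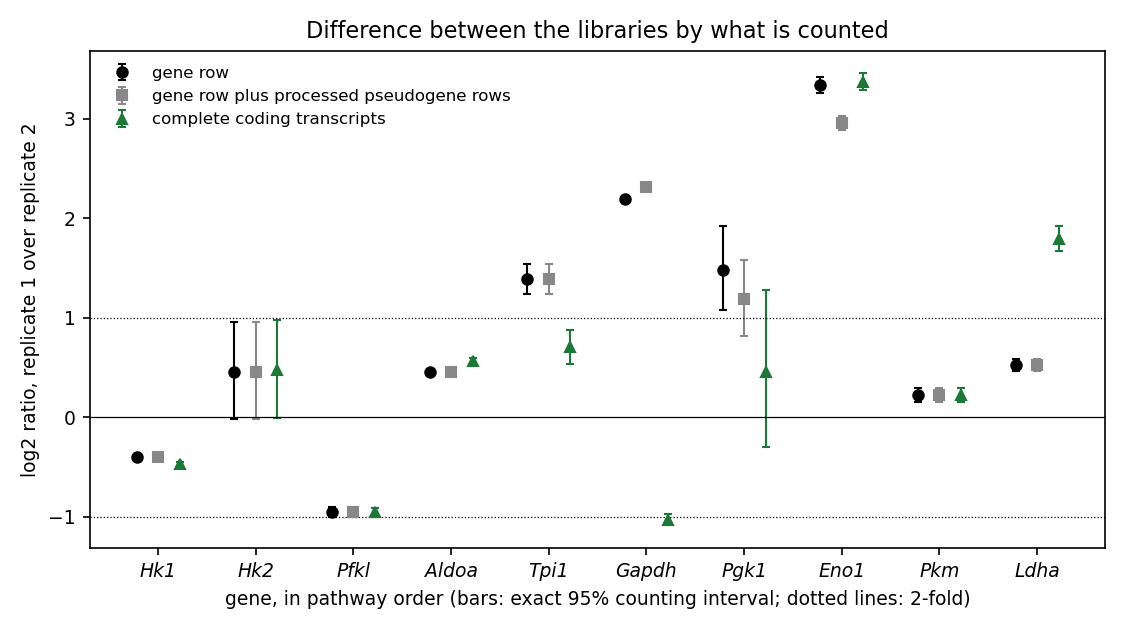
Log2 ratio of replicate 1 over replicate 2 for each enzyme gene, by gene row (circles), gene row plus matched processed pseudogene rows (squares) and complete coding transcripts (triangles); bars are exact 95% counting intervals and dotted lines 2-fold. Gapdh lies at 2.19 on its gene row and at -1.03 on complete coding transcripts, which leave out the counts on its pseudogene Gm13394. Eno1 stays near or above 3 throughout.

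Processed pseudogenes were very unevenly shared among the enzyme genes. At 30 or more shared words of 25 bases, 343 annotated processed pseudogenes matched the 10 genes, and 285 of them had a row in the tables. Gapdh accounted for 277 of them, or 80.8%. Ldha had 26, Eno1 and Pkm 10 each, Aldoa 8, and Tpi1 and Pgk1 6 each. Hk1, Hk2 and Pfkl, the enzymes that open the pathway, had none at this minimum. The share of coding-transcript words found in any other gene was highest for Pgk1 (68.4%), Gapdh (63.9%) and Eno1 (54.8%). It was 38.9% for Pkm, 28.6% for Aldoa, 26.2% for Ldha and 23.1% for Tpi1, and 0.0781 to 1.43% for Hk1, Hk2 and Pfkl.

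Counts on the pseudogene rows were almost confined to the Gapdh and Eno1 families. Gapdh kept 68.8% of its family's counts in replicate 1 and 74.8% in replicate 2. Nearly all of the rest fell on a single pseudogene, Gm13394 (chr2:28933610-28934609, minus strand), with 20859 counts in replicate 1 and 2373 in replicate 2, or 1217 and 139 TPM. Gm13394 is the coding sequence of Gapdh with 1 base changed: its 1000 bases align to Gapdh-201, beginning at base 93 of the transcript, with 999 identities. The difference is A346C, counted from the first aligned base, with the Gapdh base first. Both sequences are shown around it, with the differing base in capitals; the Gapdh stretch spans 2 exons within chr6:125162986-125163144 and the Gm13394 stretch lies at chr2:28934234-28934294 (mm10, both minus strand).
Gapdh-201: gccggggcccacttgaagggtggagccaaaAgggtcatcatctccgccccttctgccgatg
Gm13394: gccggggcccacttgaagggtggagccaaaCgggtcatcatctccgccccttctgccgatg
Reads that do not cover this base or the ends of the copy match both genes, so the division of counts between Gapdh and Gm13394 is uncertain.

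In the Eno1 family the pseudogene Gm4735 had 334 counts in replicate 1 and 420 in replicate 2, and the Eno1 share was 98.2% in replicate 1 and 75.5% in replicate 2. Gm4735 is 1302 bases long, and of its 1064 aligned bases 1059 are identical to Eno1-201. With the retrogene Eno1b counted in, Eno1 kept 84.2% in replicate 1 and 60.9% in replicate 2. Pgk1 kept 97.0% in replicate 1 and 79.2% in replicate 2, beside 7.44 and 15.8 counts on Pgk1-rs7. Ldha kept 99.9% and 99.8%, and the other genes 100%.

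**Figure D5:**
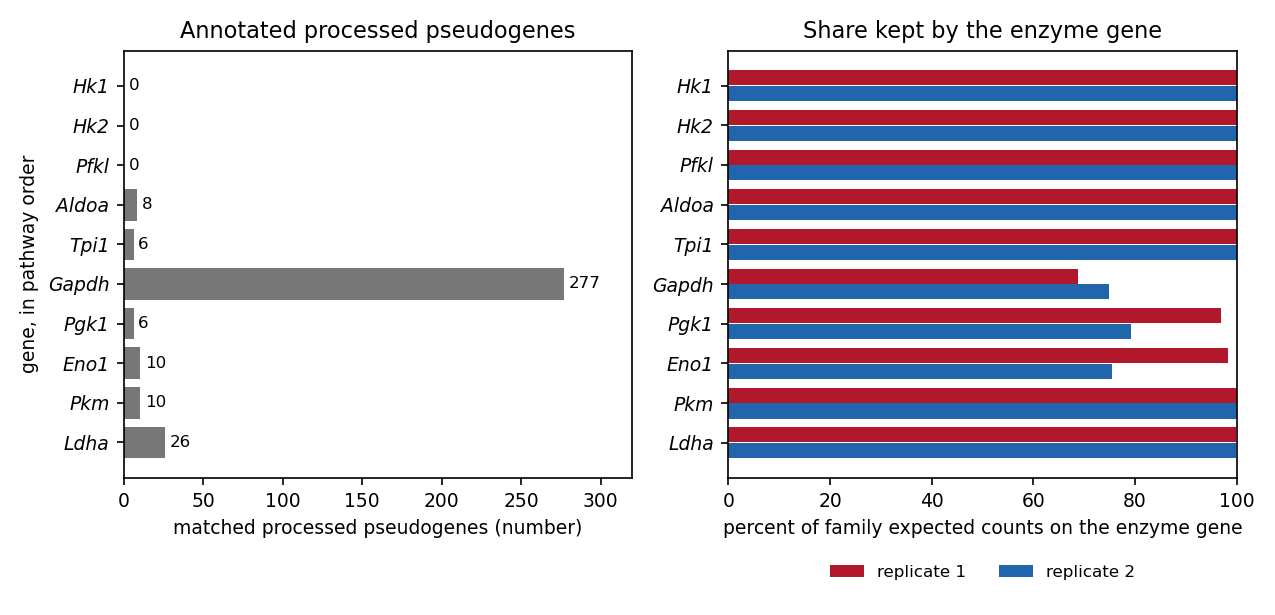
Left, number of annotated processed pseudogenes matched to each enzyme gene at 30 or more shared words; right, percent of the family's expected counts on the enzyme gene itself, replicate 1 above replicate 2. Gapdh has 277 pseudogenes and keeps 68.8% of its counts in replicate 1 and 74.8% in replicate 2, whereas Pkm and Aldoa keep 100% despite 10 and 8 pseudogenes.

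Adding the pseudogene rows to their parents left Gapdh apart with a log2 ratio of 2.31 (2.28 to 2.34) and Eno1 with 2.96 (2.89 to 3.03). Tpi1 was as before, at 1.39. Pgk1, at 1.19 (0.82 to 1.58), was no longer apart. The direction on complete coding transcripts and that on the family sum therefore differ for Gapdh. That sum holds Gapdh-206 as well as Gm13394, and coding Gapdh counts were not summed with those of Gm13394 alone. How much of the Gapdh difference between the libraries lies in Gapdh RNA itself was not tested.

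The lists set around these enzymes hold 62 genes, the 6 splicing factor genes included. Of these, 37 were detected in both libraries, beside the 41.6% of protein-coding genes given above. Of 44 with at least 20 counts, 10 were apart and higher in replicate 1 and 0 in replicate 2, beside the 14.5% and 8.84% of all genes. Their median log2 ratio was 0.66, beside 0.04 over all genes. Of the 20 other glycolytic genes, 8 were detected, a share near that of all protein-coding genes. Of the 10 with at least 20 counts, 3 were apart and higher in replicate 1: Gpi1, Pfkm and Eno1b. Gpi1, glucose-6-phosphate isomerase, had 491 TPM in replicate 1 and 107 TPM in replicate 2. Pgam1, phosphoglycerate mutase, had 58.2 and 42.0 TPM in replicates 1 and 2. Bpgm, which makes the 2,3-bisphosphoglycerate of red cells, had 8.46 TPM in replicate 1 and 3.09 TPM in replicate 2.

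The pentose phosphate pathway, which draws on glucose-6-phosphate to make NADPH and ribose, was detected in all 7 of its listed genes. Transketolase, Tkt, had 671 TPM in replicate 1 and 163 TPM in replicate 2, and transaldolase, Taldo1, 423 and 28.0 TPM; both were apart, with log2 ratios of 1.53 (1.50 to 1.56) and 3.59 (3.46 to 3.72). On complete coding transcripts Taldo1 had 419 TPM in replicate 1 and 20.4 TPM in replicate 2. Pgls had 332 and 231 TPM and Pgd 104 and 58.0 TPM in replicates 1 and 2, and neither was apart. The complete coding transcripts of Pgd had 103 TPM in replicate 1 and 27.3 TPM in replicate 2, a log2 ratio of 1.42.

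Among 7 glucose and lactate transporter genes, 5 were detected. Slc16a1, the lactate carrier MCT1, was the highest with 103 TPM in replicate 1 and 82.7 TPM in replicate 2. Slc2a3 had 24.1 and 8.66 TPM and Slc16a3 10.2 and 14.6 TPM in replicates 1 and 2. Slc2a1, the main glucose transporter of human red cells, had 9.61 TPM in replicate 1 and 7.60 TPM in replicate 2. Slc2a4, the insulin-responsive transporter, was apart, with 14.3 and 2.33 TPM. It, Slc2a1, Bpgm, Pfkfb2 and Dld were named after their values had been seen. Hk3 and Pfkp, also named, likewise averaged less than the 10 TPM at which list genes were to be named.

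Of the 5 genes that set fructose 2,6-bisphosphate, an activator of phosphofructokinase, 1 was detected in both libraries, and Pfkfb2 was apart with 5.72 TPM in replicate 1 and 0.35 TPM in replicate 2. Of the 10 genes of pyruvate dehydrogenase and its regulators, which pass pyruvate to the mitochondria, 7 were detected. Dlat had 67.6 and 57.8 TPM and Pdk3 17.6 and 8.06 TPM in replicates 1 and 2, and Dld was apart with 4.83 and 0.65 TPM. Of the 6 gluconeogenic genes, Pck2, with 72.4 TPM in replicate 1 and 39.8 TPM in replicate 2, and Pcx, with 30.6 and 18.3 TPM, were detected, while Pck1, Fbp1 and Fbp2 had 0 counts in both libraries.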

How the data were processed

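RNA from 2 libraries of 1 group was analysed from gene and transcript tables. The authors used mm10 and GENCODE M4, per the file headers and readme. Which aligner and quantifier were run is not stated in the sources used here. The authors deposited expected counts, TPM, FPKM and, for each transcript, the percent of its gene's TPM. The authors' interval bounds and posterior means, per the file headers, carry the unit of their signal.

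Of 69691 rows per gene table, 43346 had an Ensembl identifier and 42462 matched GENCODE M21 of the same assembly, which gave symbols, positions, transcript classes and sequences. Expected counts were rounded; genes needed 20 counts over both libraries. TMM scaling came from edgeR 4.0.16 in R 4.3.3, with DESeq2 1.42.0 size factors as an alternative. Ratios used a prior count of 0.5 and exact binomial 95% intervals. The rule for genes apart was tried on simulated counts with counting error only, which cannot show how it behaves under spread between libraries. The biological coefficient of variation between the libraries was 0.537. Pseudogenes were matched by 30 shared words of 25 bases over the M21 transcripts; copies were aligned with Biopython 1.88. Promoter windows were from RefSeq on GRCm38.p6. Python 3.11.15, scipy 1.17.1 and matplotlib 3.10.9 were used.

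The members, the gene lists and the tests were chosen with earlier results of these data known. The 10 enzymes were always named; so were list genes averaging at least 10 TPM, isozymes below 1 TPM as scarce, each gene's leading pseudogene and all Pkm transcripts. Not every such list gene is printed. Alternatives were other scalings, filters, prior counts, detection and word minimums, posterior means, FPKM, pseudogene sums and each library alone; complete coding transcripts were added after the data had been seen. Intervals and floors (3 counts) cover counting error only.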

Additional observations from a re-analysis of the deposited data

How the results depend on the processing

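No paired analysis was possible because the series has 1 group. With either library left out, the mean summed TPM of the enzymes ranged from 2058 to 8394 and the number of enzymes keeping their place in the order from 3 to 5 of 10; on complete coding transcripts 2 of 10 kept it. The median log2 ratio of the enzymes, 0.49, was 0.80 with total-count scaling and 0.82 as a ratio of TPM, shifts close to those of all genes. With total-count scaling 518 of all genes were apart and higher in replicate 2, against 1035. By ratio of TPM 3778 genes were more than 2-fold higher in replicate 1, against 1699 apart. The TPM count used the ratio alone, without an interval, so these numbers differ in criterion as well as in scale. On complete coding transcripts 2 enzymes were apart in place of 4, and the ratio of Gapdh reversed to -1.03, with the counts on Gm13394 left out. The cause was not tested. At 100 shared words 208 processed pseudogenes matched, in place of 343. Of the summary values, 9 moved: the places in the order, both medians, both counts over all genes, the enzymes apart and the pseudogene count. The other 72 stayed within the replicate spread, the counting interval or 1.5 times the count. The summed TPM was among them, but with 1 library left out this was fixed in advance. A mean of 2 values then always moves by less than their SD. The same holds for the other levels and shares, those of single genes included, so leaving out a library could not test them. The replicate spread was also a wide limit for the summed TPM, with an SD of 4480 on a mean of 5226. Even the mean of 1836 TPM on complete coding transcripts stayed within it. Hk2, the enzyme gene with the fewest counts, had 109 in replicate 1 alone, so neither alternative count filter could remove an enzyme gene. Of values of single genes, 181 stayed, 34 moved, 3 lost and 1 gained the call, and 1 (Gapdh) reversed. Of the 34, 1 is the share of Tpi1 with replicate 1 left out, which differed by computer rounding only. Tpi1 is the only gene of its step here, so its share is always 100%. Depth limits Hk2 and Pgk1: the authors' interval was 83.9% of the posterior mean TPM for Hk2 in replicate 2, and 1.88% for Gapdh in replicate 1.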

Other observations

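The motif ACGTG on either strand, the core bound by hypoxia-inducible factors, occurred in the RefSeq promoter windows (250 bases before to 50 after the start) of 7 of the 10 enzyme genes: Hk1, Hk2, Aldoa, Gapdh, Pgk1, Pkm and Ldha. It occurred in 21.8% of 27025 genes with a window. The enzyme genes have 17 windows, of which 8 held it, against 19.6% of all windows. CACGTG, an E-box that contains ACGTG, occurred in the windows of 1 enzyme gene, Ldha, against 8.09% of genes. A match describes the letters of a window and is not evidence of binding.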
